A study of Mus musculus with 50 samples.

Results

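The 1922 liver regions described here carried an ATAC-seq peak in every old liver library and in no young liver library. ATAC-seq maps stretches of open chromatin by letting the Tn5 transposase insert sequencing adapters wherever DNA is accessible. The peaks of 6 liver libraries were merged wherever they shared at least 1 bp, which gave 353652 regions, and a region was kept when all 3 old libraries and none of the 3 young libraries had a peak on it. These old-only regions were 0.543% of all regions. The opposite pattern, a peak in all 3 young and no old library, held for 3482 regions (young-only regions), and 34822 regions had a peak in all 6 libraries. Since the members were chosen by the liver peaks themselves, their presence and height in old liver are given as a description without a test.

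The liver and kidney samples came from untreated C57BL/6 mice, which the study's methods give as female, aged 2.5 months in the young group and 23 to 25 months in the old group. ATAC-seq was run on nuclei from frozen tissue, with 3 libraries for each tissue and age, and RNA-seq on the same tissues and ages with 4 libraries each. A further set of 8 liver RNA-seq libraries came from C57BL/6 mice aged 20 to 21 months that received the solvent DMSO (4 libraries) or 3C (4 libraries), an agent that the labels do not explain. The labels do not say that libraries came from separate animals or that ATAC-seq and RNA-seq shared animals, so p-values measure the spread between libraries, which may be partly technical.

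A transcription factor can bind its short DNA motif where chromatin is open, and the motifs that recur at the middle of open regions reflect which factor families a cell uses. In hepatocytes, the main cells of the liver, HNF1, HNF4, FOXA, C/EBP and nuclear receptors hold enhancers open. The ETS factor PU.1, encoded by Spi1, does so in macrophages, neutrophils and B cells, and the AP-1 dimers of Fos and Jun proteins act on enhancers of stressed or activated cells of many types. Liver also houses Kupffer cells, its resident macrophages, together with endothelial, stellate and blood-derived immune cells, and whole-tissue libraries mix all of them.

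The number of peaks was 112125 to 136849 in the 6 liver ATAC-seq libraries, and the total RNA count was 20.2 to 26.7 M (mega counts) in the 8 liver libraries of the age comparison and 14.2 to 43.7 M in the 8 kidney libraries. The 12 hepatocyte markers summed to between 90446 and 212377 CPM (counts per M, or mega count, of the library total) in the liver libraries, so the labelled tissue matched its defining genes.

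Sequence is shown first for 5 old-only regions within 1 kb of the transcription start site (TSS) of genes whose RNA was higher in old liver, since both readouts bear on them. Each stretch is GRCm38 plus strand sequence (RefSeq assembly) from 100 bp before to 100 bp after the summit of the most significant peak (highest −log10 q). Capitals mark matches on either strand to GGAAGT (the core bound by ETS factors), AGAGGAA (the 5′ part of the longer PU.1 motif) or TGACTCA (AP-1).
Havcr2 chr11:46454814-46455014: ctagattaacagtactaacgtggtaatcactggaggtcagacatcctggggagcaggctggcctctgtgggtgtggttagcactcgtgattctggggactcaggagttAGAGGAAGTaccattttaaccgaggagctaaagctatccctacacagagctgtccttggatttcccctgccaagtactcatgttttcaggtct
Stx11 chr10:12963372-12963572: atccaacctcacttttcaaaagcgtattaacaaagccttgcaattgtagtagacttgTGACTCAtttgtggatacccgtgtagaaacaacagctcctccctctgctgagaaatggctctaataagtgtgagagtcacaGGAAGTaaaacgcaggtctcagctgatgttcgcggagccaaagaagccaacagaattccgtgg
Itgam chr7:128062525-128062725: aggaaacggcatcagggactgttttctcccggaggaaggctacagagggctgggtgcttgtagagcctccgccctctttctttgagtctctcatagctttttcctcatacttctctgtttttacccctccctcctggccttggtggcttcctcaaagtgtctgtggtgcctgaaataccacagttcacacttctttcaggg
Csf3r chr4:126024718-126024918: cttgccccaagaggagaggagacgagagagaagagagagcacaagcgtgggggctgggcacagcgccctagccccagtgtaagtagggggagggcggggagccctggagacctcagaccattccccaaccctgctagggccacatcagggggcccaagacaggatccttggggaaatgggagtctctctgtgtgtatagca
Cdh19 chr1:110977298-110977498: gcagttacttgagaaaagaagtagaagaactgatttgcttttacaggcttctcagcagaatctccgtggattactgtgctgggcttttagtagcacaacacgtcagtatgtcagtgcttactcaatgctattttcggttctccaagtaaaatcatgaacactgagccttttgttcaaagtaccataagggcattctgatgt
The Havcr2 window held the joined PU.1 and ETS letters AGAGGAAGT a few bases from its middle, and the Stx11 window held both an AP-1 and an ETS match. None of the 3 motifs occurred in the windows at Itgam, Csf3r and Cdh19, which says only that these letters were not in those windows.

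The next 3 windows come from the 10 old-only regions with the highest fold enrichment, the height of a peak over its local background, and show regions away from promoters.
Tango6 chr8:106705059-106705259: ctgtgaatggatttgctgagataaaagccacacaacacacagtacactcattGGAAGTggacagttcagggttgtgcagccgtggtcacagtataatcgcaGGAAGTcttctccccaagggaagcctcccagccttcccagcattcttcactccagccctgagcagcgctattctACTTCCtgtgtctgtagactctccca
Il12a chr3:68666482-68666682: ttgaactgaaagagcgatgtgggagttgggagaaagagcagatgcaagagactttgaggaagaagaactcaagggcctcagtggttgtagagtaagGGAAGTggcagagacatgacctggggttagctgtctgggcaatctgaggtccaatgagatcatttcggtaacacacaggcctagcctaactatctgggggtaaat
E030013I19Rik chr2:12206446-12206646: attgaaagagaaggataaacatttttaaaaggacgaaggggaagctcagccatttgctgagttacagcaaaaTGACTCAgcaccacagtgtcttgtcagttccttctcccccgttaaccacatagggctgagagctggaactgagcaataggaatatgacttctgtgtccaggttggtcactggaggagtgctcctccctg
The Tango6 window, in an exon of that gene, held 3 ETS matches. The Il12a window, in intergenic DNA 23872 bp from the Il12a TSS, held 1 ETS match, and the window nearest to E030013I19Rik, in an intron of Itga8, held 1 AP-1 match.

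Motif letters were then counted within 100 bp of the summit in every region, on both strands. GGAAGT occurred in 640 old-only regions (33.3%), against 11.7% of young-only regions, 21.6% of regions with a peak in all 6 libraries and 16.8% of all regions. AGAGGAA, which can overlap GGAAGT, occurred in 373 old-only regions (19.4%) against 6.20% of young-only and 9.39% of all regions. TGACTCA occurred in 160 (8.32%) against 5.14% and 4.69%. The joined form AGAGGAAGT was found in 71 old-only regions (3.69%), against 0.402% of young-only regions and 1.14% of all regions. At least 2 matches of GGAAGT stood in 109 old-only regions (5.67%), against 0.718% of young-only regions, 3.65% of regions with a peak in all 6 libraries and 2.08% of all regions. In all, 950 old-only regions (49.4%) held at least 1 of the 3 motifs, against 21.2% of young-only and 27.1% of all regions.

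Other immune factor motifs had smaller shares, which were also above those of the young-only and of all regions. The IRF motif, bound by interferon regulatory factors, occurred in 4.06% of old-only, 1.98% of young-only and 2.32% of all regions. The NF-kB motif occurred in 1.14%, 0.574% and 0.757% in the same order, and the RUNX motif TGTGGTT in 5.83%, 4.60% and 4.78%. The NF-kB shares rest on 22 old-only and 20 young-only regions, and 1.01% of regions with a peak in all 6 libraries held that motif. Regions with a peak in 3 old and 1 young library held the IRF motif in 4.26% and the NF-kB motif in 1.63%. Hepatocyte factor motifs ran the other way between the old-only and young-only sets. The HNF1 motif occurred in 4 old-only regions (0.208%) and in 77 young-only regions (2.21%). The HNF4 motif CAAAGTNCA occurred in 26 old-only regions (1.35%) and in 4.82% of young-only regions, and its share in all regions was 1.58%. The share with the FOXA motif TGTTTAC was 3.02% of old-only against 7.44% of young-only regions, that with the C/EBP motif TTGCNNAA 8.90% against 14.3%, and that with the nuclear receptor motif AGGTCA 15.04% against 25.9%. For FOXA, C/EBP and AGGTCA the old-only share lay close to that of all regions (3.24%, 8.91% and 15.2%). The HNF1 share of all regions was 0.335%. For each of these hepatocyte factor motifs the wider gap to all regions was thus on the young-only side. The motif of CTCF, which anchors chromatin loops, occurred in 1.14% of old-only regions against 2.41% of young-only, 1.92% of all regions and 6.65% of regions with a peak in all 6 libraries, and GGGCGG (SP and KLF, common at promoters) in 7.08% against 25.3% of the latter. The GGGCGG share was 3.82% in young-only and 5.33% in all regions, below that of old-only regions.

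Of the remaining 9 motifs, 4 had shares close to those of all regions. The letters AGATAA (bound by blood and endothelial GATA factors) occurred in 9.83% of old-only and 10.2% of all regions, GGAATG (TEAD factors) in 10.98% and 11.5%, the MEF2 motif in 3.54% and 3.57%, and the STAT motif TTCNNNGAA in 6.19% and 5.85%. The E-box CACGTG occurred in 3.75% of old-only, 2.38% of young-only and 2.53% of all regions, and CCAAT (bound by NFY) in 21.4%, 25.96% and 26.2%. The CRE motif TGACGTCA in 6 old-only regions, the glucocorticoid receptor motif in 14 and the NFI motif in 0 were too few to compare, and 78 of all 353652 regions held the NFI motif.

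**Figure D1:**
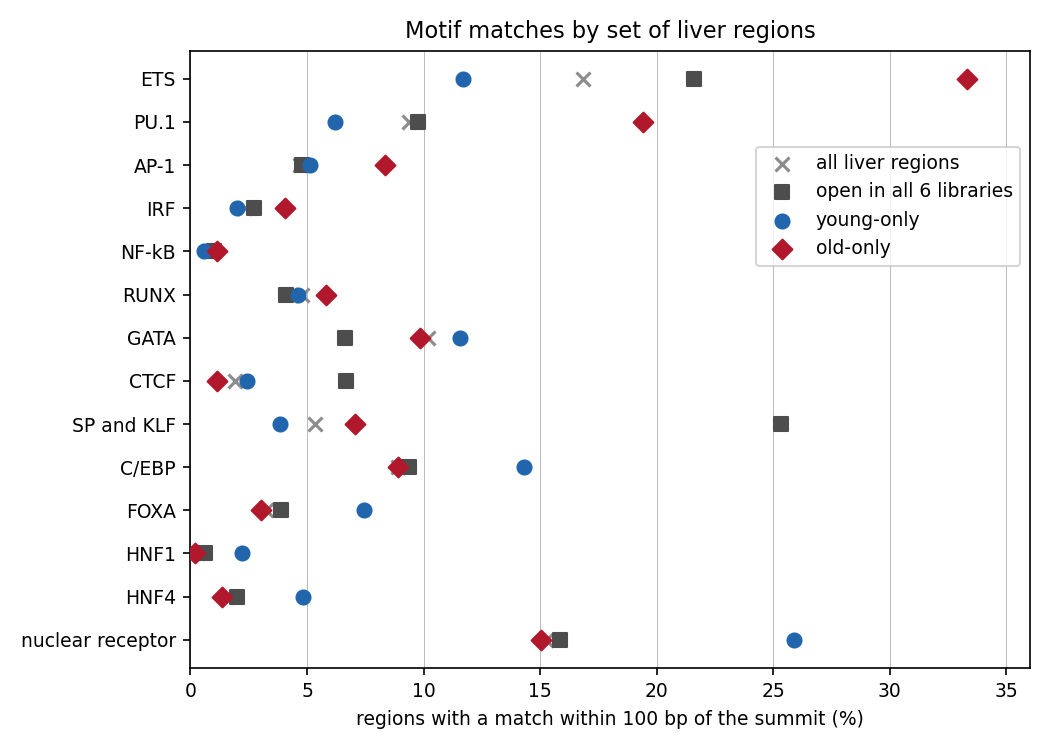
Share of regions (%, horizontal axis) with each motif (vertical axis) within 100 bp of the summit, with 1 marker each for old-only, young-only, all-6-library and all liver regions. The ETS marker of old-only regions lies at 33.3% and that of young-only regions at 11.7%, while HNF4, FOXA, C/EBP and the nuclear receptor motif stand farther right in young-only regions.

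The ETS share followed how many old libraries had a peak rather than the absence of young peaks alone. Regions with a peak in 3 old libraries held GGAAGT in 33.3%, 33.9% and 34.1% of cases when 0, 1 or 2 young libraries also had one, and in 21.6% when all 3 did. Regions with a peak in 2 old and no young library held it in 24.7%, and those with a peak in 1 old and no young library in 15.4%. In the opposite direction the share was 13.4%, 13.9% and 11.7% for a peak in 1, 2 or 3 young libraries and no old one. HNF4 matches behaved in reverse, at 1.35% with 3 old and 0 young libraries and at 3.99% and 4.59% with 3 young and 2 or 1 old libraries.

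**Figure D2:**
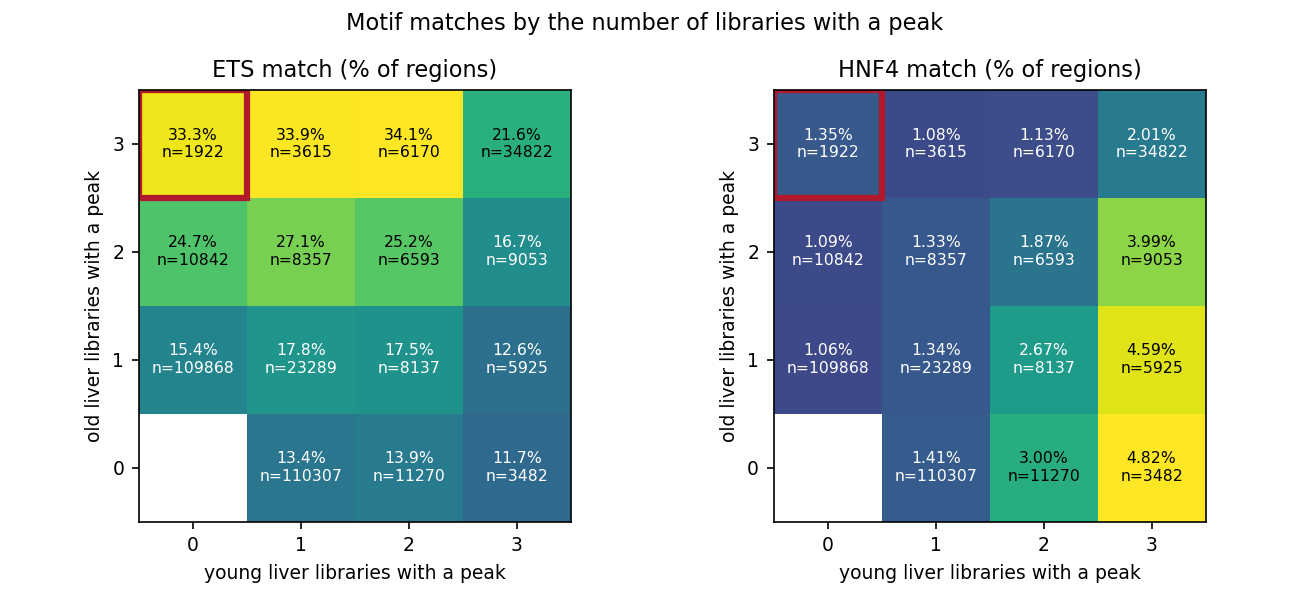
Share of regions (%, written in each square) with a motif match, by the number of old (vertical axis) and young (horizontal axis) liver libraries with a peak, with old-only regions outlined in red. ETS shares are highest along the row of 3 old libraries short of 3 young ones (33.3% to 34.1%), and HNF4 shares are highest along the column of 3 young libraries short of 3 old ones, reaching 4.82%.

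The matches lay at the middle of the old-only regions. Within 40 bp of the summit GGAAGT occurred 2.55 times per kb, against 0.731 times per kb at 200 to 300 bp from it, a ratio of 3.49. The ratio was 3.19 for AGAGGAA and 3.24 for TGACTCA. In young-only regions the ETS ratio was 0.854, with no peak at the summit, whereas the HNF4 ratio was 5.19 there and 1.19 in old-only regions. Regions with a peak in all 6 libraries also held these motifs more densely at the summit, at ratios of 2.22 for ETS, 1.57 for AGAGGAA, 1.86 for AP-1 and 2.49 for HNF4. AGGTCA was at 1.55 in old-only and 2.67 in young-only regions, and FOXA at 1.03 and 2.66. The HNF4 ratio of old-only regions rests on 10 matches near the summit and 21 in the flanks. When each old library's own summit was used, the share of old-only regions with GGAAGT was 34.0%, 32.0% and 31.9%, so it did not hang on which library had the most significant peak.

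**Figure D3:**
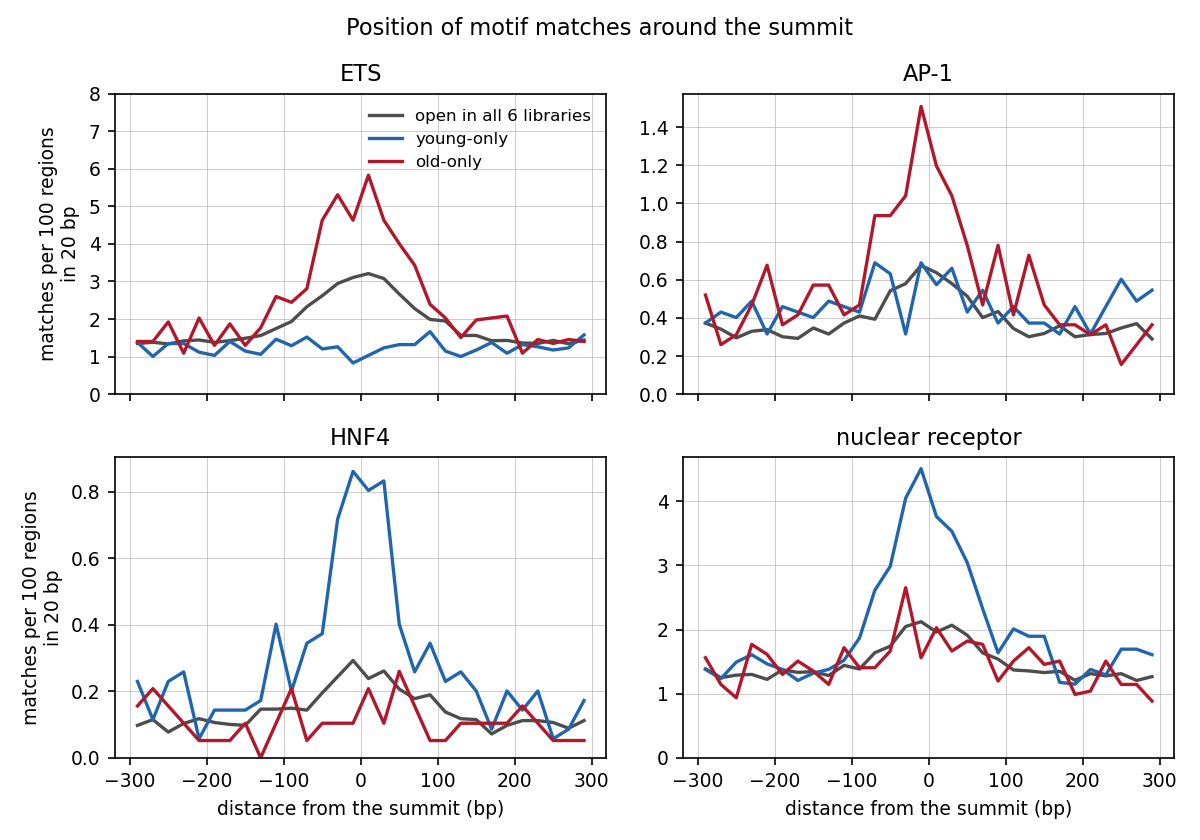
Motif matches per 100 regions in 20 bp bins (vertical axis) against the distance from the summit in bp (horizontal axis), with 1 panel per motif and 1 line each for old-only, young-only and all-6-library regions. The ETS and AP-1 lines of old-only regions rise at the summit, and the HNF4 and nuclear receptor lines rise there in young-only regions.

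The old-only regions were modest peaks. Their fold enrichment ranged from 1.64 to 7.36 in old library 1, from 1.58 to 7.91 in old library 2 and from 1.68 to 7.99 in old library 3, with medians of 2.88, 2.86 and 3.04. The median of the mean over 3 libraries was 2.97, against 3.17 for young-only regions over young libraries and 4.66 for regions with a peak in all 6 libraries. The deposited peaks include weak ones, since the lists run down to a −log10 p of 2.001. A q-value under 0.05 was reached in all 3 old libraries by 1296 members (67.4%), and a −log10 q of at least 5 in all 3 by 84 (4.37%). Just outside the rule lay 3615 regions with a peak in 3 old and 1 young library (median fold enrichment 3.12) and 10842 with a peak in 2 old and no young library (2.63), so members and neighbours form a continuum of peak height.

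Stronger members held GGAAGT and AGAGGAA more often. GGAAGT occurred in 36.5% of the 1296 members with q under 0.05 in all 3 libraries and in 26.7% of the other 626. It occurred in 44.0% of the 84 strongest by q. By fold enrichment, the highest 641 members held it in 39.9% and AGAGGAA in 26.5%, against 24.8% and 14.2% for the lowest 641. The IRF motif stood at 4.01% of the 1296 and 4.15% of the other 626 by q, and at 4.99% of the highest and 3.43% of the lowest 641 by fold enrichment. Among young-only regions the ETS share stayed between 11.5% and 11.9% over the same q classes.

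Most old-only regions lay away from promoters. Within 1 kb of a TSS lay 210 members (10.9%), a share near the 8.18% of young-only and the 9.63% of all regions and below the 37.0% of regions with a peak in all 6 libraries. Of the others, 867 (45.1%) lay in introns, 690 (35.9%) between genes and 155 (8.06%) in exons. The median distance to the nearest annotated TSS was 13590 bp, and 20.0% lay over 100 kb from the TSS of any gene in the count tables. Members were 222 to 1174 bp wide with a median of 443 bp. Their GC content had a median of 50.2%, against 47.8% in young-only and 53.7% in all-6-library regions. On average 15.01% of their sequence was repeat-masked, against 12.8% in young-only and 21.2% in all regions. The higher ETS share was present at both kinds of place, at 63 of 210 promoter members (30%, against 18.4% of all promoter regions) and in 33.7% of members elsewhere (against 16.7%). Chromosome 2 held the most members (167), chromosome 11 the highest share of its own regions (0.738%), and chromosome X held 37.

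Kidney libraries, which the rule did not use, show whether the same stretches were open in another aged organ. In the 3 young kidney libraries 29.97%, 36.004% and 31.3% of old-only liver regions had a peak, and in the 3 old kidney libraries 32.9%, 29.4% and 38.0%. The means were 32.4% ± 3.17 and 33.5% ± 4.32 (SD, n = 3 each), and the values of the groups overlapped. The difference of 1.04 percentage points gave an exact two-sided permutation p of 0.7, where 0.1 is the smallest p that 3 against 3 allows. It turned to −0.191 without young kidney library 1 and to −1.24 without old kidney library 3. Young kidney libraries had more peaks (115836 to 128395) than old ones (93072 to 108970). With the 93072 top peaks of each library, cover of old-only regions was 24.5%, 27.3% and 24.9% in young and 29.2%, 29.4% and 35.2% in old kidney. The difference was then 5.72 percentage points and all old values exceeded all young values (exact p = 0.1), so the result depends on the number of peaks compared. At that equal number all liver regions were covered at 17.6% ± 0.27 in young and 17.5% ± 0.536 in old kidney (exact p = 0.7), and young-only regions at 25.5% ± 2.05 and 20.0% ± 1.15 (exact p = 0.1).

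With all deposited peaks and the same libraries, all liver regions were covered less in old kidney, at 20.7% ± 0.661 in young and 18.4% ± 1.26 in old (exact p = 0.1), and so were young-only regions, at 29.5% ± 1.76 and 21.2% ± 0.217 (exact p = 0.1). The ratio of old-only to young-only cover was therefore 1.10 ± 0.12 in young and 1.58 ± 0.20 in old kidney, and all old values exceeded all young values (exact p = 0.1). With equal numbers of peaks it was 1.01 ± 0.103 and 1.57 ± 0.204 (exact p = 0.1).

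Of the 1922 old-only liver regions, 700 (36.4%) had no peak in any kidney library and 222 (11.6%) had one in all 6. These shares were 55.7% and 10.999% for young-only regions and 65.4% and 10.7% for all liver regions. A kidney peak in all 3 old and no young library was found at 28 old-only regions (1.46%), against 0.0574% of young-only and 0.195% of all regions. The reverse was found at 20 (1.04%), against 1.58% and 0.567%. The 222 regions shared by all kidney libraries were more often promoters (23.9%) than the 700 without a kidney peak (7%), and their ETS shares were 27.5% and 31.9%. For the 640 members with GGAAGT the old minus young kidney difference was 3.70 percentage points (exact p = 0.4), and for the others −0.286 (exact p = 1). For the promoter members it was 2.86 (exact p = 0.6) and for the rest 0.818 (exact p = 0.8). None of these 4 comparisons differed beyond the spread between libraries when all peaks were used. With equal numbers of peaks the differences were 8.70 with GGAAGT, 4.24 without it and 5.67 away from promoters (exact p = 0.1 each), and 6.19 at promoters (exact p = 0.2).

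**Figure D4:**
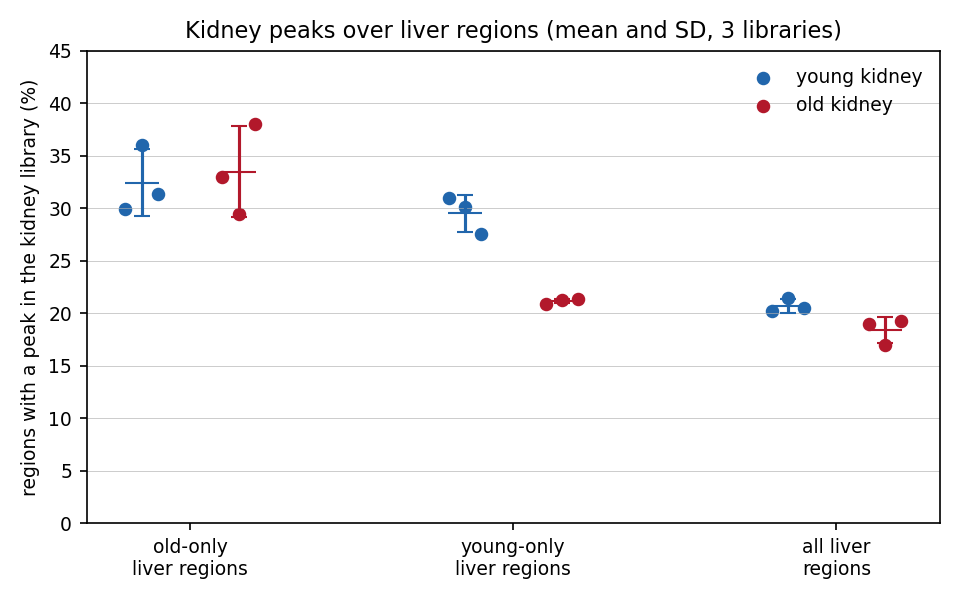
Share of liver regions (%, vertical axis) with a peak in each kidney ATAC-seq library, for old-only, young-only and all liver regions, with 1 point per library and a line at the mean of 3. For old-only regions the young (29.97% to 36.004%) and old (29.4% to 38.0%) points, with all deposited peaks counted, overlap, and for young-only regions the old points lie below the young ones.

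A gene was linked to an old-only region when its TSS lay within 1 kb. By this rule 153 regions met 161 genes in the count tables, and the other 57 promoter regions were near genes not counted. In liver RNA 106 of the 161 passed the filter on low counts. Calls were made by edgeR's quasi-likelihood test, at a fold over 2 with the Benjamini-Hochberg adjusted p under 0.05. By this test 6 of these 106 were higher in old liver (5.66%, against 1.69% of all 12537 genes tested) and 0 were lower (against 0.439%). At an unadjusted p under 0.05, 29 were higher and 2 lower (27.4% and 1.89%, against 9.99% and 4.74% of all genes tested). DESeq2 called 15 higher, the 6 among them, and 0 lower, against 3.65% higher and 0.829% lower among all genes it tested. The median log2 fold change of the 106 genes was 0.18, against 0.003 for all genes tested, and 61.3% were above 0. In 17 of them (16.04%, against 5.97% of all genes tested) the lowest old library exceeded the highest young library. Of 117 tested genes at young-only promoter regions 2 were higher and 5 lower, and no gene was linked to both kinds. In such whole-tissue libraries a change in the number of cells of a type and a change in RNA per cell cannot be told apart.

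The 6 genes called higher were Cdh19, Efna1, Havcr2, Csf3r, Itgam and Stx11. Cdh19, a cadherin for adhesion between cells that is typical of Schwann cells, was read at 0, 0.371, 0.101 and 0 CPM in the 4 young livers and at 3.65, 6.39, 2.40 and 5.37 CPM in the 4 old livers. It was near absent in the young group, and its log2 fold change was 5.11 ± 0.74 (SE, edgeR adjusted p = 0.00748). Its region (chr1:110977282-110977804) spans the TSS and had fold enrichments of 3.20, 3.52 and 3.45. The call stood under all 13 alternatives, but the size rests on 11 reads in the young group, and the log2 fold change was 6.88 without young library 2 and 4.72 without young library 1.

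Itgam encodes the alpha chain of the integrin Mac-1 (CD11b) of monocytes, neutrophils and dendritic cells. It stood at 1.93, 2.68, 1.82 and 1.52 CPM in young and 5.37, 8.49, 19.9 and 4.56 CPM in old livers (log2 fold change 2.27 ± 0.45, edgeR adjusted p = 0.0288). Itgam had 2 old-only promoter regions, chr7:128062485-128062746 across its TSS, with fold enrichments of 3.18, 2.73 and 3.48, and chr7:128063286-128063741 603 bp away, with 2.63, 2.63 and 3.08. Csf3r, the receptor for the growth factor G-CSF that drives neutrophil formation, stood at 0.744, 1.69, 1.42 and 0.994 CPM in young and 4.85, 4.87, 9.89 and 2.72 CPM in old livers (2.201 ± 0.42, edgeR adjusted p = 0.0251). Its region (chr4:126024315-126025229) covers the TSS. For both genes all old values exceeded all young values, and old library 3 was the highest.

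Havcr2 encodes TIM-3, an inhibitory receptor of T cells and macrophages. It rose from 0.0438, 0.0824, 0.101 and 0.262 CPM in young to 1.62, 0.527, 2.06 and 1.53 CPM in old livers (3.54 ± 0.63, edgeR adjusted p = 0.0185). These are low levels, resting on 10 reads in the young and 130 reads in the old group. Its region (chr11:46454681-46455222), whose window holds AGAGGAAGT, had fold enrichments of 3.68, 3.20 and 4.27. Stx11, a syntaxin needed for granule release by cytotoxic lymphocytes, stood at 0.219, 0.742, 0.354 and 0.523 CPM in young and 1.25, 2.995, 2.305 and 1.38 CPM in old livers (2.10 ± 0.47, edgeR adjusted p = 0.0435). The fold enrichment of its region (chr10:12963229-12963738) was 2.85, 3.60 and 3.30.

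Efna1, a membrane-bound ligand of Eph receptors, was the most abundant of the 6. It stood at 29.3, 28.9, 29.7 and 33.7 CPM in young and 75.2, 48.3, 75.6 and 52.4 CPM in old livers (1.06 ± 0.19, edgeR adjusted p = 0.018). Its region lay 729 bp from the TSS and was uneven, with fold enrichments of 4.202, 1.58 and 2.40. Its −log10 q in old library 2 was 0.463, so there the peak was not significant at a q of 0.05. Apart from Cdh19, these calls were sensitive to the libraries used. With the replicate number as a block the Efna1 and Stx11 calls were lost (edgeR adjusted p of 0.0608 and 0.0658). The count of 6 fell to 1 without young library 1, 2 or 3, to 3 without young library 4 and to 2 without old library 3, and rose to 12 without old library 1. The calls over all genes moved in the same direction, from 212 higher (1.69%) to 59, 65, 48 and 105 (0.376% to 0.823%) without young library 1, 2, 3 or 4, to 76 (0.599%) without old library 3 and to 365 (2.87%) without old library 1.

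The RNA calls were also counted by the presence of GGAAGT in the region, without a test of the difference. Among genes at promoter members with the motif 2 of 25 were higher in old liver (Havcr2 and Stx11, 8%), and among those without it 4 of 81 (4.94%). Among the nearest genes of distal members the shares were 2.98% (10 of 336) and 2.96% (15 of 506). In kidney RNA they were 24.1% (7 of 29) and 15.2% (14 of 92) for promoter members and 9.09% (34 of 374) and 7.43% (41 of 552) for distal members, higher in old kidney, against 5.68% of all genes tested there.

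**Figure D5:**
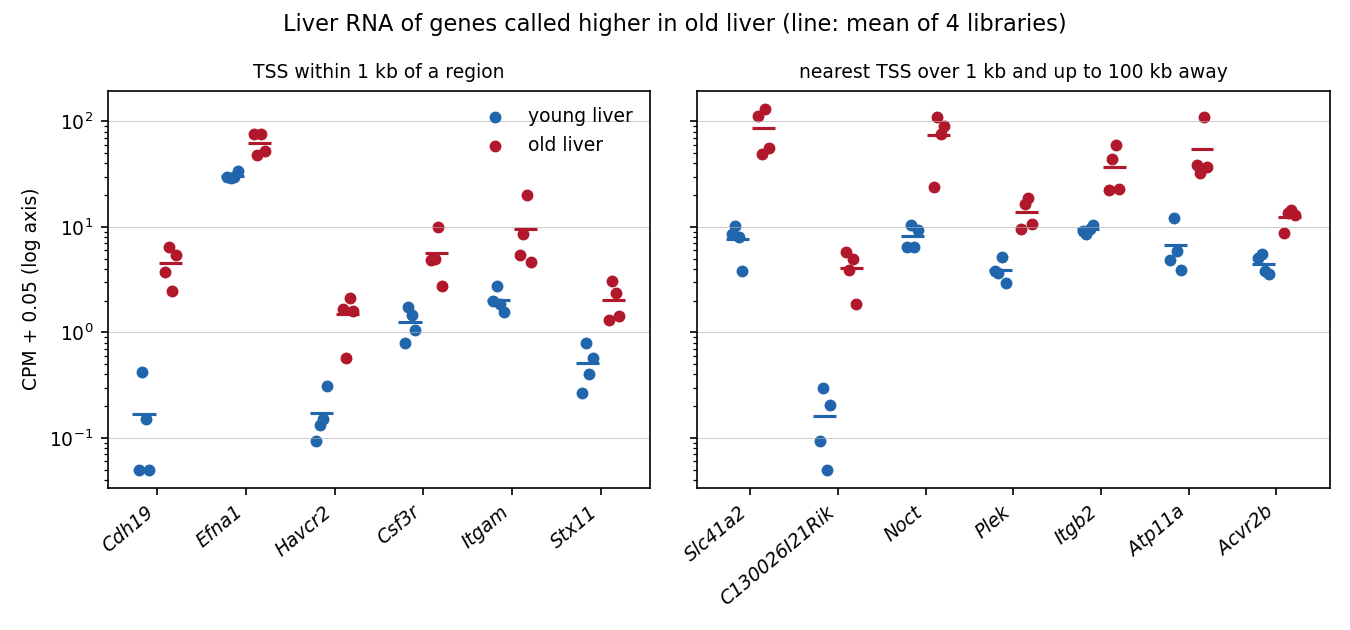
Liver RNA in CPM plus 0.05 (log vertical axis) of the genes linked to old-only regions that were called higher in old liver, promoter genes and distal genes in separate panels, with 1 point per library and a line at the mean of 4. All old points lie above all young points for each gene, from Cdh19 and C130026I21Rik, which were at 0 CPM in at least 1 young liver, to Slc41a2 at 132 CPM in an old one.

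For 1385 old-only regions the nearest TSS of a gene in the count tables lay over 1 kb and at most 100 kb away, and these TSSs belonged to 1233 genes. Of these 842 were tested in liver RNA, and 25 were higher in old liver (2.97%, against 1.69% of all genes tested) and 0 lower in edgeR, where at an unadjusted p under 0.05 131 were higher and 35 lower (15.6% and 4.16%, against 9.99% and 4.74% of all genes tested). DESeq2 called 52 higher and 3 lower, against 3.65% and 0.829% of all genes it tested. Their median log2 fold change was 0.06. The count of 25 fell to between 6 and 15 without any single young library and to 12 without old library 3, and rose to 49 without old library 1. With the replicate number as a block it was 13. The calls over all genes fell as well, to 0.376% to 0.823% without a young library and to 0.726% with the block. TSSs of genes not counted were ignored here, and the regions linked to Acvr2b and C130026I21Rik lay within 1 kb of such a TSS. Nearness does not show that a region acts on the gene.

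The called distal gene with the smallest p was Slc41a2, a magnesium transporter, whose old-only region lies in an intron 6524 bp from its TSS. It stood at 8.58, 10.2, 8.04 and 3.77 CPM in young and 111, 49.2, 132 and 56.2 CPM in old livers (3.51 ± 0.40, edgeR adjusted p = 0.00168). In old library 3 the peak of its region had a −log10 q of 0.744 and was not significant at a q of 0.05. Noct, a circadian phosphatase also known as nocturnin, stood at 6.44, 10.3, 6.37 and 9.37 CPM in young and 23.7, 111, 75.3 and 89.9 CPM in old livers (3.21 ± 0.41, edgeR adjusted p = 0.00365). The nearest old-only region, 26787 bp away, held ETS, PU.1 and AGGTCA matches and had fold enrichments of 3.83, 2.89 and 2.18. Atp11a, a flippase that moves lipids across the plasma membrane, stood at 4.77, 12.1, 5.92 and 3.87 CPM in young and 38.3, 32.5, 109 and 37.1 CPM in old livers (3.02 ± 0.47, edgeR adjusted p = 0.0107), and old library 3 was far above the others. Acvr2b, an activin receptor, rose by 1.48 ± 0.23 (edgeR adjusted p = 0.011). Its region had a −log10 q of 0.697, 3.48 and 0.433, so in old libraries 1 and 3 its peak was not significant at a q of 0.05. That region had a peak in all 3 young and 0 old kidney libraries. The Atp11a and Acvr2b calls were lost without young library 3, at adjusted p of 0.0536 and 0.052.

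The other distal genes named by p were Itgb2, Plek and C130026I21Rik. Itgb2 encodes CD18, the partner chain of Itgam in Mac-1. It stood at 9.15, 8.49, 9.56 and 10.4 CPM in young and 22.4, 44.4, 59.5 and 22.7 CPM in old livers (1.99 ± 0.31, edgeR adjusted p = 0.0104), and its old-only region, with an ETS match, lies in its body 1450 bp from the TSS. Plek, the platelet and leukocyte protein pleckstrin, rose by 1.85 ± 0.27 (edgeR adjusted p = 0.00852) and carried the region in an intron. C130026I21Rik rose by 5.08 ± 0.65 (edgeR adjusted p = 0.00365) from levels near 0. The other 18 called genes were A1bg, Capg, Ccr1, Col15a1, Csf3r, Gadd45a, Gm7609, Ikzf1, Irak3, Itgb7, Lpcat2, Mki67, Myof, Naip1, Pkib, Retnlg, Rgs12 and Sorl1. They include the chemokine receptor Ccr1 (4.66 ± 0.92), the lymphoid transcription factor Ikzf1 (1.67 ± 0.34) and the Toll-like receptor pathway inhibitor Irak3 (2.32 ± 0.37), values on the log2 fold change scale.

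The tallest old-only regions were listed with their nearest genes. The 10 with the highest mean fold enrichment had nearest genes that included E030013I19Rik, Fign, Tango6, Gm12610, Mir7089, 1190002N15Rik, Epm2a, Meis2 and Il12a. The highest, chr2:12206392-12206731 in an intron of the integrin gene Itga8, had fold enrichments of 6.44, 5.55 and 6.36. The region of Fign, a microtubule-severing enzyme, had 6.56, 5.02 and 6.52, and that in Tango6 had 5.76, 5.05 and 6.90. In liver RNA 6 of the 10 genes were tested, and none was called by edgeR or DESeq2 or passed an unadjusted p of 0.05. Meis2, a homeobox gene, stood at 2.74 ± 0.611 CPM in young and 3.45 ± 0.546 CPM in old livers (SD, n = 4 each). Il12a, which encodes a subunit of the cytokines IL-12 and IL-35, was detected in 1 of 8 libraries, at 0.209 CPM in a young liver. The region near Tango6 had a peak in all 6 kidney libraries, and those nearest to E030013I19Rik, Epm2a, Meis2 and Il12a in none.

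Old-only regions were spread thinly over gene bodies. At least 1 lay in the body of 992 genes, at least 2 in 131 and at least 3 in 19. Fgfr2 held 5, but also 10 young-only and 390 regions of any kind over an annotated body of 2961 kb. Nedd4l, a ubiquitin ligase, held 4 of its 123 regions. Jam2, a junctional adhesion molecule, Lats2, a kinase of the Hippo pathway, and Gipc2 held 3 each, among 17 or 18 regions. None of the 4 tested genes (Gipc2 was too low) was called in liver RNA by edgeR or DESeq2 or passed an unadjusted p of 0.05, and Nedd4l stood at 48.4 ± 3.999 CPM in young and 61.8 ± 12.8 CPM in old livers.

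Gene lists for liver cell types and pathways were then checked for an old-only region within 1 kb of the TSS or with that gene as the nearest within 100 kb. Of all 24534 genes placed, 1379 (5.62%) had such an old-only region and 9.81% a young-only one. The lists are small, so the counts are descriptions. In hepatocyte programmes fewer genes had an old-only than a young-only region, and most of their old-only shares lay below the 5.62% of all genes, on counts of 0 to 3. The 12 hepatocyte markers had an old-only region at 0 genes and a young-only region at 6 (Alb, Apob, Cps1, Cyp2e1, Fgb and Pck1). Of 25 genes with growth hormone or sex-biased expression in liver 1 had an old-only region and 13 a young-only one, and the counts were 1 and 10 of 31 genes for lipid and cholesterol synthesis, 1 and 7 of 31 for xenobiotic oxidation and conjugation, and 1 and 6 of 24 for fatty acid oxidation and ketogenesis. By name, 3 of 103 cytochrome P450 genes (2.91%) had an old-only and 15.5% a young-only region. Among genes for UGT, GST and SULT conjugating enzymes 1 of 64 had an old-only region and 13 a young-only one. Of 20 HNF, PPAR and RXR genes 2 had an old-only region (Pparg and Rxra) and 5 a young-only one. In RNA, 4 of 31 xenobiotic genes (Cyp2c50, Cyp2c54, Cyp3a11 and Ugt2b1) and 6 of 25 growth hormone or sex-biased genes (Cyp2d9, Fmo2, Hsd3b5, Mup20, Slco1a1 and Socs2) were lower in old liver (against 0.439% of all genes tested), and 3 of the latter were higher (Cyp3a41a, Cyp3a44 and Sult2a1, against 1.69%).

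Among the pathway and transcription factor lists, NF-kB and TNF response, AP-1 and ETS genes had the highest shares with an old-only region. Of 27 NF-kB and TNF response genes 8 had an old-only region (29.6%), namely Birc3, Ccl2, Nfkbia, Rel, Saa3, Tnfaip3, Tnip1 and Traf1, and 3 had a young-only one. They include Nfkbia and Tnfaip3, feedback inhibitors of NF-kB, Rel, a subunit of it, and Ccl2, the chemokine that draws monocytes. In RNA 5 of the 25 tested genes of this list rose in old liver (Cxcl1, Lcn2, Nfkbiz, Saa1 and Saa2), none of them among the 8, against 1.69% of all genes tested. The 27 genes summed to 255 to 348 CPM in young livers and to 6653, 450, 23143 and 593 CPM in old ones. Old libraries 3 and 1 stood far above the others, and the acute phase genes Saa2 and Saa1 were the highest of the list there, at 10411 and 2678 CPM. Of 14 AP-1 family genes 4 had an old-only region (Mafk, Batf3, Jun and Maff) and 0 a young-only one, and in RNA edgeR called 1 of 12 tested members higher (Junb), 5 were higher at an unadjusted p under 0.05 and DESeq2 called 3 higher. Of 19 ETS family genes 4 had an old-only region (Elf1, Elk3, Erg and Etv6) and 1 a young-only one, and 0 of the 19 were called in RNA by edgeR, 5 were higher at an unadjusted p under 0.05 and DESeq2 called 3 higher. By name alone, 7 of 40 genes with Tnfaip, Tnfrsf, Tnfsf or like names (17.5%) had an old-only region, Tnfaip3 again among them. So did 12 of 99 genes with Cd names (12.1%), which include Cd2ap. The shares with a young-only region were 22.5% and 9.09%. Of 1450 olfactory and vomeronasal receptor genes, mostly silent outside sensory tissue, 15 (1.03%) had an old-only region.

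Shares in the other pathway lists ran from below to above the 5.62% of all genes. Old-only regions were found at 3 of 36 chemokine and receptor genes (Ccl2, Ccr1 and Cxcr5), 1 of 11 MHC class II genes (H2-Aa) and 1 of 23 matrix and fibrosis genes (Col4a2). Of 19 circadian clock genes 3 had an old-only region (Per1, Per2 and Rora, 15.8%) and 6 a young-only one (31.6%). Among the 34 of 391 solute carrier genes with an old-only region were Slc11a1, an ion transporter of macrophage vesicles, and Slc16a3, a lactate carrier. The 3 microRNA genes within 1 kb of an old-only region were Mir7661, Mir7687 and Mir8101.

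Cell type markers moved with age in the same RNA libraries. Hepatocyte markers summed to 140356 to 212377 CPM in young and 90446 to 156515 CPM in old livers, overlapping ranges, and 10 of the 11 tested had a log2 fold change below 0 (median −0.36), with Cyp3a11 called lower. All 16 Kupffer cell and macrophage markers had a log2 fold change above 0 and 6 were called higher (Cd5l, Cd68, Gpnmb, Lyz2, Trem2 and Vsig4), with a summed level of 869 to 1379 CPM in young and 1315 to 2664 CPM in old livers. The 10 monocyte and dendritic markers summed to 9.93 to 11.6 CPM in young and 19.7 to 44.9 CPM in old livers, with Ccr2 and Itgam called higher. All 5 tested neutrophil markers of 8 were called higher (Csf3r, Cxcr2, Retnlg, S100a8 and S100a9), with sums of 2.68 to 5.65 and 13.2 to 132 CPM. The 18 T and NK cell markers summed to 18.2 to 32.3 and 35.9 to 81.1 CPM, with 0 called by edgeR, 5 higher at an unadjusted p under 0.05 and 3 higher by DESeq2. Of 16 B and plasma cell markers 4 were called higher (Cd79a, Jchain, Ms4a1 and Mzb1), with sums of 202 to 282 and 218 to 420 CPM. The part of these cells in the old-only regions and in the RNA calls was not tested.

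The same markers were checked for regions. An old-only region was found at 0 of 16 Kupffer cell and macrophage markers and 0 of 16 B and plasma cell markers, where 1 and 2 had a young-only one. It was found at 3 of 18 T and NK cell markers (Lck, Cd4 and Zap70), 2 of 10 monocyte and dendritic markers (Itgam and Zbtb46) and 2 of 8 neutrophil markers (Csf3r and Retnlg), against young-only regions at 0, 2 (Clec9a and Itgam) and 1 of them. Itgam thus had both kinds, the young-only region being away from its promoter. It was also found at 2 of 11 endothelial (Stab2 and Pecam1) and 2 of 11 stellate cell and fibroblast markers (Lox and Pdgfrb), where 2 and 1 had a young-only one. Endothelial markers summed to 403 to 449 CPM in young and 419 to 453 CPM in old livers, stellate cell and fibroblast markers to 372 to 575 and 460 to 510 CPM, and cholangiocyte markers to 44.7 to 94.0 and 39.8 to 100.5 CPM, with overlapping ranges. Of these 3 lists 1 gene was called, Lyve1, an endothelial hyaluronan receptor, which was lower in old liver (−1.28 ± 0.23, edgeR adjusted p = 0.0182).

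Further list members with an old-only region at the promoter did not pass the test in liver RNA. Lck, a kinase of T cell receptor signalling, stood at 1.23, 0.948, 0.506 and 0.576 CPM in young and 1.72, 1.91, 1.58 and 1.76 CPM in old livers. The groups did not overlap, but with a log2 fold change of 1.09 ± 0.37 the edgeR adjusted p was 0.168. Mafk, a small Maf protein that pairs with AP-1-like partners, stood at 13.5 ± 1.95 and 18.8 ± 4.18 CPM (0.49 ± 0.19, edgeR adjusted p = 0.266), again without overlap. Stab2, a scavenger receptor of liver sinusoidal endothelium, stood at 44.6 ± 9.86 and 45.7 ± 12.8 CPM, Per1, a clock gene, at 13.1 ± 1.96 and 12.8 ± 4.94 CPM, and Bdh1, a ketone body enzyme, at 272 ± 70.4 and 216 ± 42.6 CPM (SD, n = 4 each), all with overlapping values. Lox, which crosslinks collagen, was too low to be tested.

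Genes encoding factors whose motifs were counted are given beside the motif shares. Spi1, which encodes PU.1, stood at 8.06, 7.54, 4.65 and 11.1 CPM in young and 17.7, 15.3, 24.5 and 10.5 CPM in old livers (1.12 ± 0.30, edgeR adjusted p = 0.0838), with 1 young value above the lowest old one. It was called with DESeq2 (adjusted p = 0.0167) and without old library 4 (edgeR adjusted p = 0.0468) and in none of the other 11 alternatives. Spib, a B cell and dendritic cell relative of PU.1, had a log2 fold change of 1.84 ± 0.57 (edgeR adjusted p = 0.132) and was called with DESeq2 alone (adjusted p = 0.0325). Hepatocyte factors had small log2 fold changes and were not called, at −0.17 ± 0.19 for Hnf4a, −0.15 ± 0.19 for Cebpa and −0.07 ± 0.16 for Foxa2.

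In kidney RNA 121 of the 161 genes with an old-only liver region at the promoter were tested, and 21 were higher in old kidney (17.4%, against 5.68% of all 14495 genes tested) and 1, Stab2, was lower (against 0.407%). The median log2 fold change was 0.13, against 0.02 over all genes. Of the 21 genes, 2 were also called in liver. Csf3r stood at 0.585, 0.764, 0.357 and 0.782 CPM in young and 2.84, 4.22, 1.42 and 7.83 CPM in old kidneys (2.70 ± 0.52, edgeR adjusted p = 0.0101). Itgam stood at 1.54, 0.719, 3.43 and 1.38 CPM in young and 11.99, 23.7, 3.93 and 25.3 CPM in old kidneys (3.24 ± 0.62, edgeR adjusted p = 0.00932), and old library 3 lay close to the highest young library. The Itgam call was lost with the replicate number as a block (adjusted p = 0.0531).

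Immune markers rose in the same libraries. All 12 tested Kupffer cell and macrophage markers were called higher in old kidney, with sums of 154 to 194 CPM in young and 754 to 1570 CPM in old kidneys. So were 14 of 17 tested T and NK cell markers (16.5 to 21.9 and 54.8 to 85.6 CPM), 8 of 10 monocyte and dendritic markers (16.4 to 20.6 and 56.8 to 123 CPM), 9 of 15 B and plasma cell markers (186 to 233 and 606 to 772 CPM) and all 3 tested neutrophil markers (0.745 to 2.64 and 7.14 to 28.8 CPM). Their part in the kidney calls was not tested.

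The other 19 genes higher in old kidney were AI467606, Anxa2, BC028528, Glipr2, Gngt2, Hvcn1, Lat2, Lck, Lrrc25, Lyz1, P2rx1, Phf11a, Rasal3, Runx1, Sla, Slc11a1, Slc16a3, Srgn and Tnfsf13b. They include Lat2 and Sla, adaptors of antigen receptor signalling, Hvcn1, the proton channel of phagocytes and B cells, and Tnfsf13b, the B cell survival factor BAFF. Lyz1 may share reads with its near-identical neighbour Lyz2. Lck stood at 2.45, 0.764, 1.43 and 0.541 CPM in young and 5.84, 7.06, 4.87 and 7.04 CPM in old kidneys (2.26 ± 0.42, edgeR adjusted p = 0.00781). Stab2 fell by 1.07 on the log2 scale (SE 0.27, edgeR adjusted p = 0.0304), from 21.5, 25.4, 13.2 and 17.7 CPM in young to 7.92, 11.9, 11.5 and 5.87 CPM in old kidneys, a call that was lost in 4 of 11 alternatives. Spi1 was called higher there, at 3.45 ± 0.653 CPM in young and 18.2 ± 8.73 CPM in old kidneys (2.41 ± 0.32, edgeR adjusted p = 0.00198).

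The age effect was then compared between tissues in a joint edgeR fit. It differed for Cdh19, by 5.78 ± 1.14 on the log2 scale (liver minus kidney, edgeR adjusted p = 0.0182), and for Efna1, by 1.05 ± 0.21 (edgeR adjusted p = 0.0191). Efna1 stood at 32.2 ± 1.41 CPM in young and 33.1 ± 3.42 CPM in old kidneys (SD, n = 4 each). Among the distal genes named, it differed for Slc41a2, Noct, Atp11a and Acvr2b, by 3.39 ± 0.44, 3.45 ± 0.46, 3.42 ± 0.54 and 2.01 ± 0.31 (edgeR adjusted p of 0.00128, 0.00137, 0.00416 and 0.00416). A difference at an adjusted p under 0.05 was found for 1.72% of all 15036 genes in that fit. For Havcr2, Csf3r, Itgam, Stx11, Plek and Itgb2 the difference between tissues did not pass the test.

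In livers of mice aged 20 to 21 months 3C changed none of these genes detectably. Of the 161 promoter genes 108 were tested, and edgeR and DESeq2 called 0 of them, as edgeR called 0 of all 13042 genes tested. At an unadjusted p under 0.05, 5 of the 108 (2 higher and 3 lower with 3C) and 436 of all genes passed (1.91% higher and 1.43% lower). Cdh19 stood at 3.38, 4.28, 3.48 and 6.28 CPM with DMSO and 1.88, 3.84, 8.42 and 6.83 CPM with 3C. Csf3r stood at 6.76 ± 1.80 and 6.75 ± 2.16 CPM, Havcr2 at 0.955 ± 0.329 and 0.899 ± 0.123 CPM, Efna1 at 80.3 ± 17.4 and 98.7 ± 14.3 CPM, and Itgam at 2.203 ± 0.893 and 2.97 ± 1.23 CPM (SD, n = 4 each). All of these values overlapped between DMSO and 3C, with edgeR adjusted p of 1.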

How the data were processed

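RNA-seq and ATAC-seq of young and old mouse liver and kidney, and RNA-seq of old liver with DMSO or 3C, were used, grouped by the sample labels. Fibroblast libraries and treated kidney were not used here. The deposited RNA-seq values are whole-read counts for 24984 genes, which the authors made with Trimmomatic 0.39 (trimming), HISAT2 2.2.1 (alignment to mm10) and HTSeq 0.12.4 (counting, strand ignored). Overlapping genes and close paralogs are thus uncertain. The deposited ATAC-seq peaks were called by the authors library by library with MACS2 (version not given in the sources used here), after Bowtie2 2.3.5.1 alignment and removal of duplicates. The deposited lists give each peak's fold enrichment over local background as a ratio, its −log10 p and its −log10 q. The ATAC-seq build was not given with the alignment step, and no peak lay beyond a GRCm38 chromosome end, so GRCm38 and the GENCODE vM21 basic annotation were used (24534 gene names found).

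Counts were tested in edgeR 4.0.16 (R 4.3.3, TMM, filterByExpr with a minimum count of 10, quasi-likelihood, two-sided) for each comparison alone, with DESeq2 1.42.0 as an alternative. In simulated libraries where 200 genes differed 4-fold, 186 were called in the liver age comparison with 7 false calls, 189 with 4 in kidney and 192 with 4 for 3C. Kidney cover was compared by exact permutation over libraries. Log2 fold changes are given ± SE. Total counts per library were 14.2 to 43.7 M, and with 3 ATAC-seq libraries per group the exact p cannot go below 0.1. No 2 libraries of a group agreed within sampling noise, with a chi-square over its degrees of freedom of at least 11.3 in 36 pairs.

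The regions, gene lists and motifs were chosen with earlier results of these data known. The genes named are, by rule, promoter genes called in old liver, without Gm and Rik names (up to 20 higher and 10 lower), the nearest genes of the 10 old-only regions with the highest mean fold enrichment, up to 7 higher and 3 lower distal genes by p, the 5 genes with the most old-only regions in their bodies, and promoter genes in a gene list. Other names are complete lists of called genes or examples from them, chosen after their values were seen, as were Spi1, Spib and the hepatocyte factors. Alternatives for RNA were RLE size factors, DESeq2, other filters (none, or a mean of at least 1 CPM), calls without the fold threshold, the replicate number as a block and each library left out. Those for peaks were each library left out, a −log10 q of at least 5, equal numbers of top peaks, other overlaps, and a TSS distance of 2.5 kb. A peak over at least 50% of the merged region, the comprehensive annotation, motif windows of 50 and 150 bp on each side, and all alternatives for the ETS share were added after seeing the data. Same-numbered young and old liver libraries had correlations of −0.31 to 0.334 in their deviations from the group means. The best match was the same number for 2 and 3 but not for 1 and 4. With 3C the correlations were −0.115 to 0.221, and the same number matched best for 1, 2 and 3. As the signs were mixed, numbers were not taken as pairs in the main fits. Python 3.11.15 with numpy 2.4.6, pandas 2.3.3 and scipy 1.17.1 was used. Some genes that these rules name are not reported here.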

Additional observations from a re-analysis of the deposited data

Results flagged for a closer look

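The age effect on RNA differed between liver and kidney for 6 of the genes named with old-only regions, by the interaction term of the joint edgeR fit. The liver minus kidney difference in log2 fold change was 5.78 for Cdh19 (adjusted p = 0.0182), 1.05 for Efna1 (0.0191), 3.39 for Slc41a2 (0.00128), 3.45 for Noct (0.00137), 3.42 for Atp11a (0.00416) and 2.01 for Acvr2b (0.00416). Cdh19 passed the count filter in liver but not in kidney alone.

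In the other 2 cases a library stood apart from its own group. The highest young liver value of Efna1 was 33.7 CPM, with the next at 29.7 CPM. The highest old liver value of Atp11a was 109 CPM, with the next at 38.3 CPM. Chance gives such a gap in about 1 in 20 groups of 4, and many groups were examined.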

How the results depend on the processing

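The set of old-only regions depended on the peaks allowed and on the libraries used. With peaks of a −log10 q of at least 5 there were 1023 regions, of which 84 were shared with the 1922, and leaving out 1 liver ATAC-seq library gave 3025 to 7420 (7420 without old library 2), as a weaker demand must. The promoter share of 10.9% became 15.5% with a −log10 q of at least 5, 11.05% with equal numbers of peaks, 12.9% with a peak over at least 50% of the region, 18.3% at 2.5 kb, 14.9% with the comprehensive annotation and 8.89% to 11.9% without single libraries. The ETS share of 33.3% became 44.3% with a −log10 q of at least 5, 36.03% with a peak over at least 50% of the region, 21.3% and 39.8% in windows of 50 and 150 bp on each side, and 25.3% to 33.8% without single libraries. Old minus young kidney cover ran from −1.24 to 3.05 without single libraries, negative without young kidney library 1 (−0.191) or old kidney library 3 (−1.24). With equal numbers of top peaks it was 5.72 (exact p = 0.1), and all old libraries then exceeded all young ones. The planned overlap of 50% of the shorter of peak and region changed nothing, since each peak lies whole inside its merged region.

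In liver RNA the 6 promoter genes called higher became 15 with DESeq2, 2 with regions of a −log10 q of at least 5 (0 of the 6 among them) and 1 to 12 without single libraries. The 25 distal genes called higher became 52 with DESeq2, 13 with the replicate block and 6 to 49 without single libraries, and 0 called lower became 1 with RLE size factors, with no filter on low counts or without the fold threshold, 3 with DESeq2 and 0 to 2 without single libraries. Promoter genes lower in old kidney went from 1 to 2 with DESeq2 and 0 to 5 without single libraries. Under the replicate block 4 of the 6 promoter genes were called in liver (Efna1 and Stx11 were lost), and libraries with the same number correlated best with each other for 2 of 4 numbers in liver. Over 28 tested genes named, 350 of 391 alternative values had the direction and call reported, 29 lost the call and 12 changed sign, all for genes not called: Epm2a (−0.013 with the replicate block, −0.16 to 0.501 without single libraries), Jam2 (−0.019 to 0.172 without single libraries, negative without young library 4), Per1 (−0.17 to 0.224, positive without young library 3 or 4 or old library 1) and Stab2 (−0.059 to 0.235, negative without young library 4 or old library 2, 3 or 4). Where a value moved for no reason given here, the cause was not tested.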
